A study of Arabidopsis thaliana with 8 samples.

Results

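The serine carboxypeptidase-like genes scpl31 (AT1G11080, probe set 260475_at) and SCPL34 (AT5G23210, probe set 249847_at) were followed across 4 genotypes of Arabidopsis thaliana. These 2 genes were taken by symbol out of 13356 that have a probe set of their own in the platform annotation, and each has 1 such probe set. Both were picked because, among the serine carboxypeptidase-like (SCPL) genes, they differed most from wild type in the transgenic lines. Their differences from wild type are therefore given as a description, with no test.

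RNA came from dissected vegetative shoot apices with their leaf primordia, taken from 20-day-old plants kept on soil at 23 °C with a day of 8 h and a night of 16 h. The tested lines were rGRF3x35S:GIF1, labelled an overexpressor of GRF3 and GIF1, rGRF3, labelled a GRF3 overexpressor, and 35S:GIF1, labelled a GIF1 overexpressor. The wild type was the accession Col-0. GRF3 is a growth-regulating transcription factor, GIF1 is a co-activator that binds such factors, and 35S is a viral promoter active in most plant tissues. In published work rGRF3 is a GRF3 version that the microRNA miR396 cannot target. The labels used here do not name the promoter of rGRF3, the background accession of the lines or the number of independent transformants. Each genotype had 2 Affymetrix ATH1 arrays, lettered A and B. Nothing says that A and B were separate cultures, so the p-values cover the spread between arrays, part or all of which may be technical.

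Serine carboxypeptidases remove amino acids from the carboxyl end of proteins, through a catalytic triad of serine, aspartate and histidine. In plants the family also holds members that moved from cutting peptides to transferring acyl groups from glucose esters. Arabidopsis SNG1 (SCPL8) and SNG2 (SCPL19) are such sinapoyltransferases, which make sinapoylmalate and sinapoylcholine, and BRS1 (SCPL24) was found as a suppressor of a weak brassinosteroid receptor mutant. The substrates of scpl31 and SCPL34 are not annotated in the tables used here.

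Values are log2 signals, so a difference of 1 is a 2-fold change, and on these arrays they ran from a floor of 2.12 to 15.55. Array medians lay between 5.9 and 5.97. None of the 12 GRF and GIF genes has a probe set of its own, so the genotype labels were not checked on GRF3 or GIF1. Probe sets that list several genes were not searched for these or the other listed genes. Of 9 fixed markers of the shoot apex, the stem cell gene CLV3 alone had a probe set of its own, and it stood at the floor (2.12) on all 8 arrays. The stomatal lineage regulators SPCH, MUTE and FAMA and the trichome gene TRY were measured, and none of them marks the apex itself. In bulk tissue, fewer cells that express a gene and less RNA per cell cannot be told apart. The Col-0 columns carry 9 decimals and the other 6 carry 3, so a step in which the Col-0 arrays were handled apart cannot be told apart from a difference between Col-0 and the lines.

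scpl31 was lowest in Col-0 and highest in the lines that carry rGRF3. Its log2 signal on the B and A arrays was 7.71 and 7.43 in rGRF3x35S:GIF1. It was 7.78 and 6.78 in rGRF3. It was 6.72 and 5.36 in 35S:GIF1, against 4.83 and 4.56 in Col-0. All 6 arrays of the transgenic lines lay above both Col-0 arrays. The means were 7.57 ± 0.20 in rGRF3x35S:GIF1, 7.28 ± 0.70 in rGRF3 and 6.04 ± 0.96 in 35S:GIF1, against 4.69 ± 0.19 in Col-0 (SD, n = 2 each). The spread between arrays was thus widest in 35S:GIF1 and rGRF3.

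Against Col-0, scpl31 was 7.33-fold higher in rGRF3x35S:GIF1 (log2 fold change 2.87, standard error 0.51). It was 6.0-fold higher in rGRF3 (2.59, standard error 0.51) and 2.54-fold higher in 35S:GIF1 (1.35, standard error 0.51). Among the 14005 probe sets tested, its log2 fold change ranked 4 from the highest in rGRF3x35S:GIF1, 7 in rGRF3 and 20 in 35S:GIF1. Within letter B the log2 differences from Col-0 were 2.88, 2.95 and 1.89 in rGRF3x35S:GIF1, rGRF3 and 35S:GIF1, and within letter A they were 2.87, 2.22 and 0.80. The value in rGRF3x35S:GIF1 was thus nearly equal in both letters, while that in 35S:GIF1 was larger in letter B. These 3 comparisons share the Col-0 arrays and are set side by side only.

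SCPL34 followed the same order of means over a narrower range. Its log2 signal on the B and A arrays was 6.50 and 6.68 in rGRF3x35S:GIF1. It was 6.29 and 6.79 in rGRF3. It was 6.20 and 6.34 in 35S:GIF1, against 5.51 and 5.93 in Col-0. All 6 line arrays again lay above both Col-0 arrays, while the 3 lines lay close together. The means were 6.59 ± 0.13 in rGRF3x35S:GIF1, 6.54 ± 0.35 in rGRF3 and 6.27 ± 0.10 in 35S:GIF1, against 5.72 ± 0.30 in Col-0 (SD, n = 2 each).

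Against Col-0, SCPL34 was 1.83-fold higher in rGRF3x35S:GIF1 (log2 fold change 0.87, standard error 0.23), 1.76-fold higher in rGRF3 (0.82) and 1.47-fold higher in 35S:GIF1 (0.55). Within letter B these log2 differences were 0.99, 0.78 and 0.69, and within letter A they were 0.75, 0.86 and 0.42. Its rank from the highest among the 14005 was 305 in rGRF3x35S:GIF1, 319 in rGRF3 and 299 in 35S:GIF1. Of all tested probe sets, 3.84% had all 6 line arrays above both Col-0 arrays, and 10.4% had the same order of means. Both genes were chosen on these differences, so nothing is read from those shares.

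**Figure D1:**
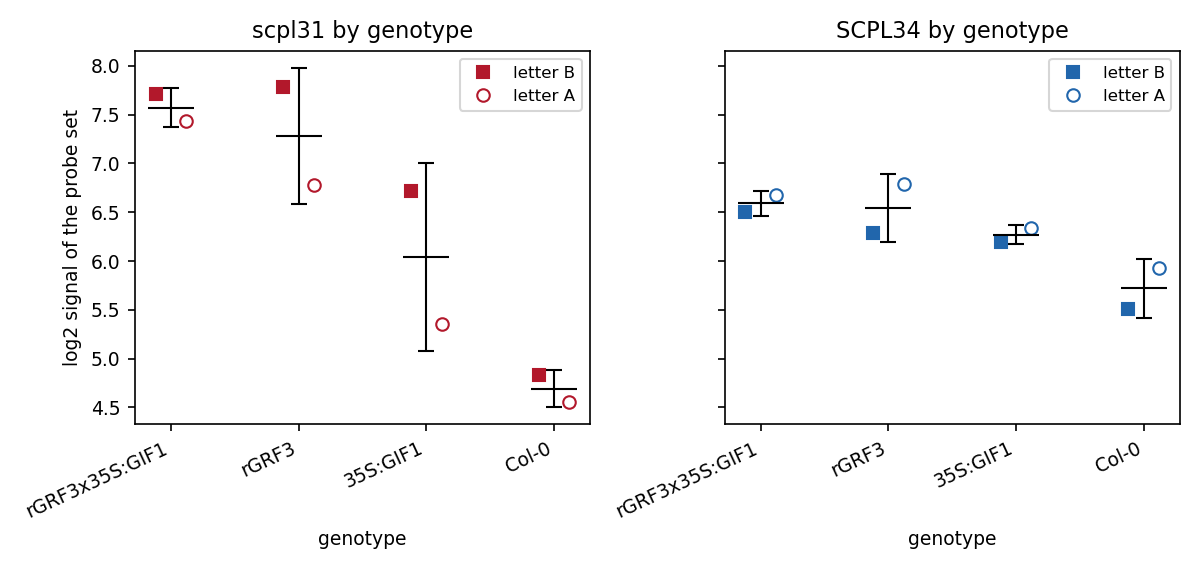
Log2 signal (vertical axis) of scpl31 (left) and SCPL34 (right) on each array of the 4 genotypes. Filled squares are letter B, open circles are letter A, and bars give the mean and SD of 2 arrays. The scpl31 means step down along the axis between 7.57 in rGRF3x35S:GIF1 and 4.69 in Col-0, while SCPL34 lies between 6.59 and 5.72.

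The order of levels was checked between neighbours. For scpl31, the arrays of rGRF3x35S:GIF1 and rGRF3 overlapped. The rGRF3 arrays lay above those of 35S:GIF1, narrowly, with 6.78 as the lower rGRF3 value and 6.72 as the higher 35S:GIF1 value, as in 9.84% of all tested probe sets. For SCPL34 the arrays of rGRF3x35S:GIF1 and rGRF3 overlapped, and so did those of rGRF3 and 35S:GIF1.

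The differences between the lines do not use the Col-0 arrays, although they share the arrays of the lines with the differences that chose the genes. Those of rGRF3x35S:GIF1 minus rGRF3 or minus 35S:GIF1 ask what each transgene adds in the presence of the other. That of rGRF3 minus 35S:GIF1 compares the lines with a transgene each. Adding rGRF3 to 35S:GIF1 went with a 2.88-fold higher scpl31 signal (rGRF3x35S:GIF1 minus 35S:GIF1, log2 difference 1.53, 95% interval 0.29 to 2.76). This did not pass in limma's fit over all probe sets (unadjusted p = 0.023, adjusted p = 1.0). With the letter as a block the interval was 0.82 to 2.23 and the adjusted p = 0.508 by limma. Of all tested probe sets 0.0% passed in this comparison, with and without the block, and 14.1% had both arrays of rGRF3x35S:GIF1 above both arrays of 35S:GIF1, as scpl31 and SCPL34 did. The log2 difference was 0.99 within letter B and 2.07 within letter A, and with 1 array left out it ran from 0.85 without 35S:GIF1 replicate A to 2.2 without 35S:GIF1 replicate B.

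Adding 35S:GIF1 to rGRF3 gave a smaller scpl31 difference, with a wide interval. The log2 difference of rGRF3x35S:GIF1 minus rGRF3 was 0.29, with a 95% interval of -0.95 to 1.52 (adjusted p = 1.0 by limma). With the letter as a block the interval was -0.42 to 0.99 and the adjusted p = 0.997 by limma. Within letter B the log2 difference was -0.07 and within letter A it was 0.65, so the direction differed between the letters. Between the lines with a transgene each, scpl31 was 2.36-fold higher in rGRF3 than in 35S:GIF1 (log2 difference 1.24, 95% interval 0.01 to 2.47, adjusted p = 1.0 by limma, and adjusted p = 0.854 with the letter as a block). It was 1.06 within letter B and 1.42 within letter A, and with 1 array left out it ran from 0.56 without 35S:GIF1 replicate A to 1.92 without 35S:GIF1 replicate B. Of all tested probe sets 0.00714% passed in each of these 2 comparisons, with and without the block.

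SCPL34 differed less between the lines. The log2 difference was 0.32 for rGRF3x35S:GIF1 minus 35S:GIF1 (95% interval -0.24 to 0.88), 0.05 for rGRF3x35S:GIF1 minus rGRF3 (-0.51 to 0.61) and 0.26 for rGRF3 minus 35S:GIF1 (-0.30 to 0.82). None of these passed (adjusted p = 1.0 for each by limma, and adjusted p from 0.592 to 0.999 with the block). The difference of rGRF3x35S:GIF1 minus rGRF3 was 0.21 within letter B and -0.10 within letter A. The upper ends of these intervals reach 0.88, or 0.65 with the block, so they do not show that the lines were alike.

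**Figure D2:**
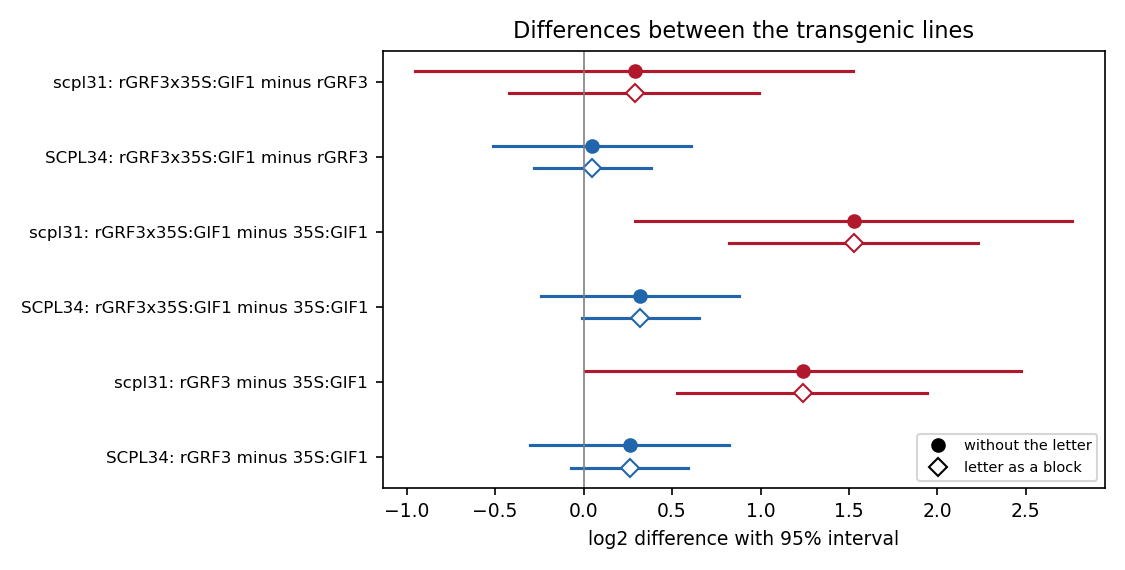
Log2 difference (horizontal axis) between pairs of transgenic lines for scpl31 (red) and SCPL34 (blue), with 95% intervals. Filled circles are the fit without the letter and open diamonds the fit with the letter as a block. The scpl31 intervals that leave 0 are those of rGRF3x35S:GIF1 minus 35S:GIF1 and rGRF3 minus 35S:GIF1. No line difference of either gene passed after adjustment, with or without the block.

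In rGRF3x35S:GIF1 both genes were lower than the sum of the 2 separate changes would give. For scpl31 the log2 fold change against Col-0 was 2.87, where those of rGRF3 and 35S:GIF1 sum to 3.93. The difference was -1.06 with a standard error of 0.72 (95% interval -2.80 to 0.69). It was -1.96 within letter B and -0.16 within letter A. For SCPL34 the log2 fold change was 0.87 against a sum of 1.37, a difference of -0.50 (95% interval -1.29 to 0.29), with -0.48 within letter B and -0.52 within letter A. With the letter as a block the 95% intervals were -2.05 to -0.06 for scpl31 and -0.97 to -0.03 for SCPL34. These values include the Col-0 arrays, and a low Col-0 signal, for which the genes were picked, also lowers this difference. They are a description, and nothing is read from whether an interval leaves out 0.

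The letters A and B were not used to choose the genes, and the B minus A differences of the 2 genes had opposite signs in these arrays. scpl31 was higher on the B array in all 4 genotypes. Its log2 difference of B minus A was 0.28 in rGRF3x35S:GIF1, 0.99 in rGRF3, 1.35 in 35S:GIF1 and 0.27 in Col-0. SCPL34 was lower on the B array in all 4 genotypes. Its difference was -0.19 in rGRF3x35S:GIF1, -0.50 in rGRF3, -0.15 in 35S:GIF1 and -0.42 in Col-0. Such one-way differences were common: 22.3% of tested probe sets were higher on B in all 4 genotypes and 25.3% were lower.

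In limma's fit with genotype, scpl31 was 1.65-fold higher on the B arrays (log2 difference 0.72, standard error 0.20, adjusted p = 0.0496), just past the threshold. Over the alternatives tried its adjusted p ran from 0.0198 to 0.226, and 5 of 15 passed. It did not pass without an array of 35S:GIF1, rGRF3 or rGRF3x35S:GIF1 (0.51, 0.63 and 0.87 on the log2 scale). SCPL34 was 1.24-fold lower (log2 difference -0.31, standard error 0.10, adjusted p = 0.0607) and did not pass. Its adjusted p ran from 0.048 to 0.171 over the alternatives, of which 1 of 15 passed. Among the 15 alternatives, leaving out the A or the B array of a genotype gives the same letter fit, so each such fit is counted for both letters. Of all tested probe sets, 24.6% passed for the letter. Each letter is 1 set of 4 arrays, so the letter p-values here and below do not measure a spread between such sets. The difference between the genes was tested over the 4 genotypes: the B minus A difference of scpl31 exceeded that of SCPL34 by 0.46 in rGRF3x35S:GIF1, 1.49 in rGRF3, 1.5 in 35S:GIF1 and 0.69 in Col-0. The mean was 1.04 ± 0.54 (SD, n = 4). The same direction in 4 of 4 genotypes follows from the opposite signs of the 2 genes given above. The two-sided exact permutation p = 0.125, the smallest that 4 genotypes allow, was therefore fixed by those signs. A minus B deviations also correlated between genotypes (r from 0.59 to 0.75), so the 4 are not independent and nothing is read from this p. The array control for 25S ribosomal RNA had, on the B and A arrays, 6.34 and 10.9 in rGRF3x35S:GIF1, 6.76 and 8.23 in rGRF3, 6.66 and 7.88 in 35S:GIF1, and 7.01 and 6.22 in Col-0. Its part in these differences was not tested.

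**Figure D3:**
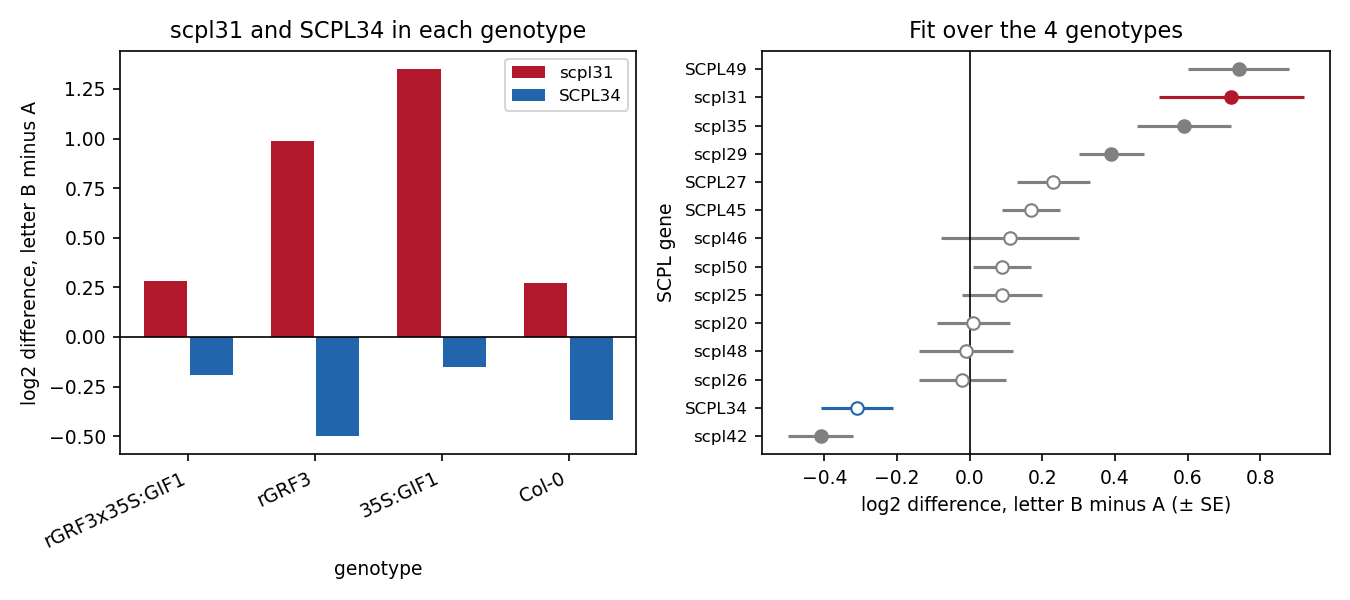
Log2 difference of letter B minus letter A. On the left, bars give scpl31 (red) and SCPL34 (blue) in each genotype, above 0 for scpl31 and below 0 for SCPL34 in all 4. On the right, points give the fit over the 4 genotypes with its standard error for 14 SCPL genes, filled where the adjusted p was under 0.05.

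The rest of the family serves as background. The gene table lists 49 genes whose symbol is SCPL plus a number, and 29 of them have a probe set of their own here. Of these, 14 passed the filter of a log2 signal of at least 4 on at least 2 arrays: scpl31, SCPL34 and 12 others. The 15 that did not pass stayed at or under 2.85 on every array, and 9 of them stayed under 2.2, near the floor. They include scpl41, scpl22, scpl23 and scpl30, all at 2.12 on the 8 arrays. SNG1 and BRS1 had no probe set of their own, and neither did SCPL19.

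That the 12 others differed less from Col-0 than scpl31 and SCPL34 follows from how the 2 genes were picked, so their values are given for scale. In rGRF3x35S:GIF1 their log2 fold changes ran from -0.05 (scpl46) to 0.44 (SCPL27), with 11 of 12 higher and a median of 0.27. Over all tested probe sets the median was -0.01 and 48.5% were higher. SCPL27 had 8.48 and 8.34 on the B and A arrays of rGRF3x35S:GIF1, against 8.20 and 7.75 in Col-0, so the A array of rGRF3x35S:GIF1 lay just above the B array of Col-0. In 6 of the 12 both rGRF3x35S:GIF1 arrays lay above both Col-0 arrays, where 15.8% of all tested probe sets did. None of the 12 passed in limma's fit, with the block or in an ordinary linear model, and 2 had an unadjusted p under 0.05, as did 6.44% of all tested probe sets. Of all tested probe sets 0.00714% passed, or 0.0357% with the block.

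In rGRF3 the 12 others ran from -0.36 (scpl46) to 0.22 (scpl25), with 8 of 12 higher and a median of 0.11, beside a median of -0.02 over all probe sets. Both rGRF3 arrays of scpl25 (9.41 and 9.63) lay above its Col-0 arrays (9.40 and 9.20), by a narrow margin, and 2 of the 12 stood apart in this way (11.5% of all tested probe sets). In 35S:GIF1 they ran from -0.18 (scpl46) to 0.34 (SCPL45), with 8 of 12 higher, a median of 0.03 and 3 of 12 standing apart (9.23% of all). SCPL45 had 8.58 and 8.51 in 35S:GIF1, against 8.30 and 8.11 in Col-0. None of the 12 passed in either comparison in limma's fit, with the block or in an ordinary linear model, and 0 had an unadjusted p under 0.05, as did 3.42% of all tested probe sets in rGRF3 and 1.41% in 35S:GIF1. Of all tested probe sets 0.0% passed in rGRF3 and 0.00714% in 35S:GIF1, with and without the block.

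**Figure D4:**
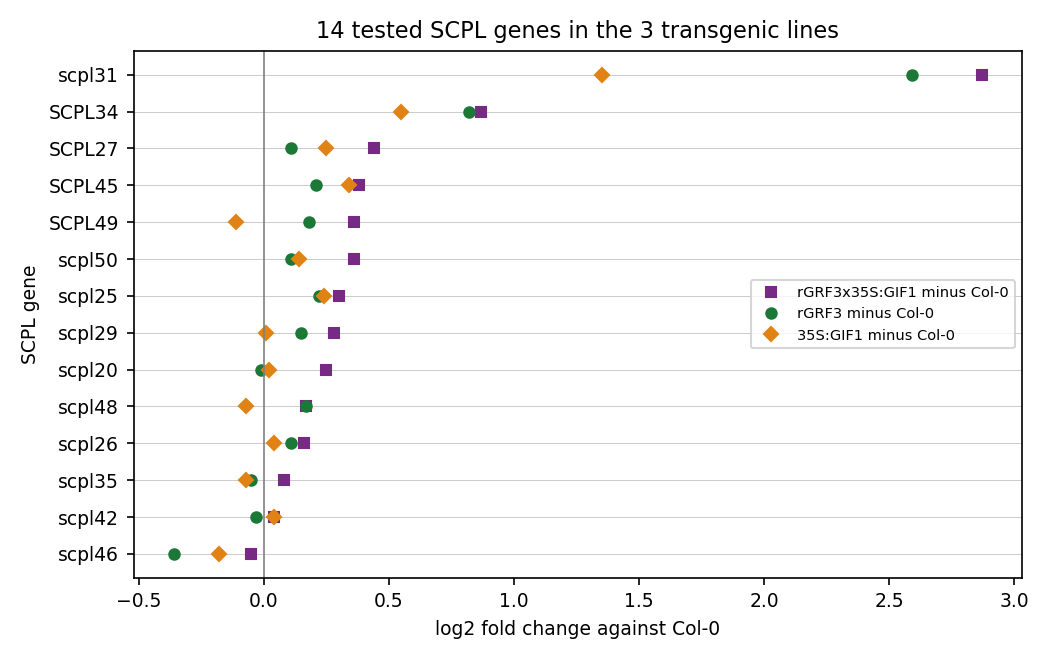
Log2 fold change against Col-0 (horizontal axis) of the 14 tested SCPL genes, with squares for rGRF3x35S:GIF1, circles for rGRF3 and diamonds for 35S:GIF1. scpl31 lies at 2.87, 2.59 and 1.35, SCPL34 at 0.87, 0.82 and 0.55, and no other gene exceeds 0.44.

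For the letters the family was mixed. Of the 12 others, 4 passed in limma's fit, where 24.6% of all tested probe sets did. SCPL49, which the gene table also names carboxypeptidase Y, was 1.68-fold higher on the B arrays (log2 difference 0.74, adjusted p = 0.0164). On the B and A arrays SCPL49 had 9.15 and 7.94 in rGRF3x35S:GIF1, 8.75 and 7.98 in rGRF3, 8.29 and 7.85 in 35S:GIF1, and 8.46 and 7.91 in Col-0. The B array was thus above the A array in every genotype, as for scpl31. scpl35 (0.59) and scpl29 (0.39) were also higher on the B arrays, while scpl42 was lower there (-0.41, adjusted p = 0.0238), as SCPL34 was without passing. In an ordinary linear model 0 of the 12 passed, and 419 of all 14005 did. SCPL49 shared the letter difference of scpl31 but not the size of its differences from Col-0, which were 0.36 in rGRF3x35S:GIF1, 0.18 in rGRF3 and -0.11 in 35S:GIF1.

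The 2 genes were compared with each other and with all others by Pearson's r over the 8 arrays, which share genotypes and letters, so r is given without a p. Both genes were picked for lying above Col-0 in the lines, so a likeness between them is in part set by that choice. Between scpl31 and SCPL34 r was 0.71. With each letter's mean subtracted it was 0.95. Among 1663 other probe sets with their own gene and a range of at least 1 on the log2 scale, SCPL34 ranked 134 in likeness to scpl31, and 9 after the letter means were subtracted. In the other direction scpl31 ranked 149 in likeness to SCPL34, and 5 after that step.

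The probe sets most like scpl31 were AT5G08520 (r = 0.95), AT1G02300 (0.93), AILP1 (0.93), AT2G38000 (0.93) and AT5G43190 (0.92). AT5G08520 had 8.57 and 8.24 on the B and A arrays of rGRF3x35S:GIF1, 8.51 and 7.96 in rGRF3 and 8.36 and 7.75 in 35S:GIF1, against 7.54 and 7.55 in Col-0. Its B arrays were higher in the 3 lines and level with A in Col-0. The other 4 likewise had the B array higher in all 3 lines and lower in Col-0, whereas scpl31 was higher on B in Col-0 too. The 5 were picked by r with scpl31 over the same arrays, so their shared direction in the lines follows largely from that choice. All 5 had log2 fold changes of 0.70 to 0.89 in rGRF3x35S:GIF1 against Col-0, smaller than the 2.87 of scpl31.

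The probe sets most like SCPL34 were AT5G25280 (r = 0.96), AT3G12710 (0.95), AT5G49170 (0.95), MYBC1 (0.95), a MYB-like transcription factor gene, and AT5G58787 (0.95). MYBC1 had 7.84 and 8.16 on the B and A arrays of rGRF3x35S:GIF1, 7.73 and 8.01 in rGRF3 and 7.12 and 7.56 in 35S:GIF1, against 6.54 and 7.18 in Col-0. All 5 were lower on the B array in all 4 genotypes, as SCPL34 was and as 25.3% of all tested probe sets were. They were picked by r with SCPL34 over the same arrays, so this likeness follows largely from that choice. Their log2 fold changes in rGRF3x35S:GIF1 against Col-0 were 0.67 to 1.14, on both sides of the 0.87 of SCPL34. No gene was shared between the 2 sets of 5.

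**Figure D5:**
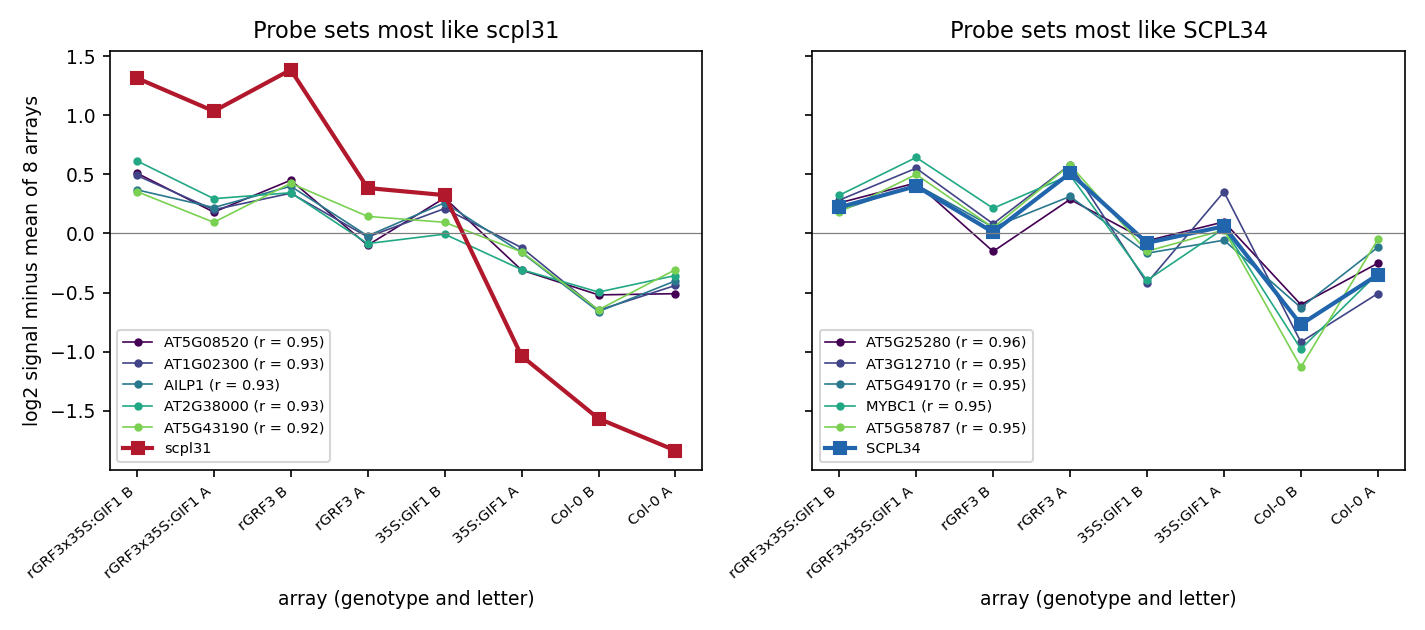
Log2 signal minus the mean over 8 arrays (vertical axis) on each array, for scpl31 (left) and SCPL34 (right) as thick lines and the 5 probe sets most like each as thin lines. The scpl31 line spans more than its 5 companions, and the SCPL34 line lies among its own.

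The nearest measured protein-coding genes on the chromosome were taken from the gene order of assembly TAIR10.1. AT1G11070, next to scpl31 on the lower side, stood at 2.12 on all 8 arrays. AT1G11090, next to it on the higher side, had 5.60 and 5.87 on the B and A arrays of rGRF3x35S:GIF1, against 5.67 and 5.61 in Col-0 (log2 fold change 0.10, adjusted p = 0.958 by limma). The measured gene nearest to SCPL34 on the lower side, AT5G23180, with 2 genes between them, was at 2.12 on all 8 arrays. On the higher side AT5G23250, with 4 genes between, had a log2 fold change of -0.40 in rGRF3x35S:GIF1 (adjusted p = 0.756 by limma), opposite in sign to SCPL34.

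Genes of the routes in which characterised SCPL proteins act were listed by locus, and few of them have a probe set of their own. Of 19 sinapate ester and phenylpropanoid genes, 4 had one and 2 were tested. HCT, a hydroxycinnamoyl transferase gene, had a log2 fold change of -0.28 in rGRF3x35S:GIF1 against Col-0 (adjusted p = 0.873 by limma). REF1, an aldehyde dehydrogenase gene of sinapate and ferulate synthesis, had 0.11 (adjusted p = 0.934 by limma). UGT84A3, which glucosylates hydroxycinnamates, passed a log2 signal of 4 on 1 array, that of Col-0 B (4.44). Of 18 brassinosteroid genes BRL1 alone had a probe set of its own, at 2.12 on all 8 arrays. Of 12 other secreted and vacuolar protease genes the subtilase gene ARA12 was tested, with 10.79 and 11.05 on the B and A arrays of rGRF3x35S:GIF1, against 11.19 and 11.20 in Col-0 (log2 fold change -0.27, adjusted p = 0.811 by limma). No tested gene of these lists passed against Col-0, where 0.00714% of all probe sets did in rGRF3x35S:GIF1.

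The 3 measured stomatal lineage markers had negative log2 fold changes against Col-0 in each line, small for SPCH (-0.04 in 35S:GIF1). In rGRF3x35S:GIF1 these were -0.17 for SPCH, -0.52 for MUTE and -0.67 for FAMA, and 0 of 3 passed (adjusted p = 0.921, 0.771 and 0.714 by limma). That comparison called 0.00714% of all tested probe sets, and 48.5% were higher than in Col-0, so nothing is read from these counts. The log2 of their summed signal ran from 8.02 to 8.25 in rGRF3x35S:GIF1, from 7.86 to 8.46 in rGRF3 and from 8.22 to 8.45 in 35S:GIF1. In Col-0 it ran from 8.32 to 8.48, so rGRF3 and 35S:GIF1 overlapped Col-0. The share of all probe sets with both arrays below Col-0 was not counted. SPCH made up most of this sum, at 7.5 to 8.18, where MUTE stayed at or under 4.82 and FAMA at or under 5.99. TRY, the trichome marker, had a log2 fold change of -0.03 in rGRF3x35S:GIF1 and was lower on the B arrays (log2 difference -0.73, adjusted p = 0.0176 by limma). EXP7, the measured root hair marker, stood at or under 2.19 on every array. The part of these cell types in the values of scpl31 and SCPL34 was not tested.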

How the data were processed

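The deposited table holds log2 signals of 22810 probe sets on 8 arrays. Per the submitters' processing notes the authors used limma and GCRMA, a method that turns probe intensities into background-corrected, normalised probe set values. No version, build or scan date is given in the sources used here. The log2 scale was checked on the values. Of the probe sets, 64 are controls and were left out; 13513 have exactly 1 listed gene, 503 several and 8730 none, and 13436 matched the TAIR10.1 gene table by Entrez identifier.

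Probe sets with a log2 signal of at least 4 on at least 2 arrays (14005) were fitted by genotype with limma 3.58.1 in R 4.3.3 (lmFit, contrasts.fit, eBayes), with Benjamini-Hochberg adjustment over all of them and a threshold of 0.05. The letter was tested in a fit with genotype. The fit was tested on simulated data. A minus B deviations correlated between all 6 pairs of genotypes (r from 0.59 to 0.75). Arrays of the same letter were therefore treated as pairs in the blocked fit and within letters, a choice the labels do not state. Standard errors, intervals and p-values of genotype differences given without the block ignore this pairing. Blocked values stand beside the line comparisons. Plots used matplotlib 3.10.9, and tables pandas 2.3.3 and numpy 2.4.6 in Python 3.11.15.

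The 2 genes and all lists were chosen with earlier results of these data known. Named genes were scpl31 and SCPL34, the SCPL genes with the highest and lowest change in each comparison with Col-0, the 5 probe sets with their own gene that correlated best with each over 8 arrays (range of at least 1), the nearest measured neighbours, up to 2 members per list and all that passed. SCPL genes at the floor were named after their values were seen. A planned search of promoters for motifs was not run, since no promoter sequence was used here. The number of arrays limits the precision.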

Additional observations from a re-analysis of the deposited data

How the results depend on the processing

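The letter difference of scpl31 lay close to the threshold. Its log2 value was 0.72 without a filter (adjusted p = 0.226 by limma) and 0.72 in an ordinary linear model (adjusted p = 0.197), 0.68 with median centred arrays and 0.70 with quantile normalised arrays (adjusted p = 0.0548 for each by limma), and it did not pass in these. Leaving out 1 array removes its genotype from this comparison. The value then ran from 0.51 to 0.87 (adjusted p from 0.0493 to 0.146 by limma), and it passed without a Col-0 array but not without an array of 35S:GIF1 (0.51), rGRF3 (0.63) or rGRF3x35S:GIF1 (0.87). The letter difference of SCPL34 passed with median centred arrays (-0.35, adjusted p = 0.048 by limma).

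Against Col-0, leaving out 1 array kept scpl31 between 2.74 and 3.01 in rGRF3x35S:GIF1, between 2.09 and 3.08 in rGRF3 and between 0.67 and 2.02 in 35S:GIF1. The last moved to 0.67 without 35S:GIF1 replicate B and 2.02 without replicate A. SCPL34 in rGRF3 ran from 0.57 without rGRF3 replicate A to 1.07 without replicate B. The departure from the sum of the 2 changes ran from -1.73 to -0.38 for scpl31, with -1.96 within letter B and -0.16 within letter A, and from -0.75 to -0.25 for SCPL34. The difference of rGRF3x35S:GIF1 minus rGRF3 changed sign for scpl31 without rGRF3 replicate A (-0.21, range -0.21 to 0.78), and for SCPL34 without rGRF3 replicate B (-0.20) or rGRF3x35S:GIF1 replicate A (-0.04, range -0.20 to 0.30). Such fits compare a line that has 1 letter with lines that have both, and the cause was not tested. With the replicate block the log2 values were the same, such as 1.53 for scpl31 in rGRF3x35S:GIF1 minus 35S:GIF1, and no line difference of the 2 genes passed. The 95% intervals of the departure from the sum were narrower with the block (-2.05 to -0.06 for scpl31, -0.97 to -0.03 for SCPL34). Nothing is read from their leaving out 0, since the genes were picked by their differences from Col-0. The line differences of the 2 genes did not pass under any alternative run. The median over SCPL genes in rGRF3x35S:GIF1 against Col-0 was 0.29, 0.08 without a filter, and 0.19 to 0.45 with 1 array left out.

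Over all probe sets, the letter called 3439, or 1069 with no filter, 419 by ordinary least squares and 1063 to 2634 with 1 array left out. rGRF3x35S:GIF1 against Col-0 called 1, or 5 with the block. That comparison called 0 without a filter, with median centred arrays and with array weights. The other comparisons of genotypes called 0 to 3 under every alternative run.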
